A study of Mus musculus with 2 samples.

Results

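Beta1 tanycytes are the 4006 cells, of 22285 in all, that the authors' deposited annotation names so, with 1558 in the control library and 2448 in the Nfia/b/x-deficient library. Tanycytes are glial cells of the hypothalamus whose bodies border the third ventricle along its floor and lower walls and whose long processes reach into the tissue. Beta1 tanycytes lie in the lower lateral wall, beta2 tanycytes line the floor over the median eminence, and alpha tanycytes lie higher on the wall. NFIA, NFIB and NFIX are transcription factors of the nuclear factor I family, known for driving the formation and maturation of glia. Beta1 tanycytes were to be checked with Rax, a tanycyte transcription factor, Frzb, which encodes a secreted antagonist of Wnt signalling, and Penk, which encodes the opioid precursor proenkephalin. The regions of the deposited matrix carry only numbers and are not paired with genes or positions in the files used here, so these 3 markers and the deleted loci were not analysed here. Both the cell type and the genotype therefore rest on their labels.

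Chromatin accessibility was measured in single cells by ATAC-seq, in which the transposase Tn5 cuts open DNA, at postnatal day 8. The control cells came from Rax-CreER;CAG-lsl-Sun1-GFP mice. The deficient cells came from mice that also carried floxed Nfia, Nfib and Nfix (each lox/lox). Both groups thus carried Rax-CreER, which drives recombination in Rax-expressing tanycytes, and the Sun1-GFP nuclear tag by which cells of the mediobasal hypothalamus were sorted, and a cell that descends from a marked tanycyte keeps the tag. Each genotype had 1 library, and the sources used here do not state how many animals went into it. No difference between genotypes below has a replicate check or a test. A detection is a region found in a cell. Intervals in parentheses are exact 95% intervals for counting error only, and differences between cells of a type and between animals are not in them.

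Beta1 cells made up 17.4% of control cells (16.6 to 18.2%) and 18.4% of deficient cells (17.7 to 19.0%), a ratio of 1.05 (0.989 to 1.12). As a share of tanycytes they were 21.3% of the control (20.4 to 22.3%) and 24.3% of the deficient ones (23.5 to 25.2%), a ratio of 1.14 (1.07 to 1.22). The first ratio has an interval that includes 1 and the second does not. Both shares also move with the sort and with the shares of the other types. Control beta1 cells had 1069 to 17699 detections each, with a median of 4155.5 and quartiles of 2899.5 and 5859. Deficient beta1 cells had 998 to 13242, with a median of 3582.5 and quartiles of 2566.75 and 5020.25, and were thus shallower. In all there were 7319566 control and 9762249 deficient detections in beta1 cells. Over the whole series 204 cell barcodes occurred in both libraries, of which 39 belonged to control and 33 to deficient beta1 cells, and 8 to beta1 cells in both.

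Nearly every region was seen in some beta1 cell, but few were seen in most of them. Of 107377 regions, 107306 were found in at least 1 control beta1 cell and 107370 in at least 1 deficient one, while the median region was found in 1.93% of control and 1.76% of deficient beta1 cells. Regions found in at least 10% of cells numbered 13866 (control) and 10860 (deficient), and those found in at least 50% numbered 8 and 1. With each cell thinned to 2000 detections, and the 145 control and 315 deficient beta1 cells below that depth left out, 2416 and 2152 regions reached 10%. The region found most often was region 43752, in 83.8% of control (81.8 to 85.6%) and 80.1% of deficient beta1 cells (78.5 to 81.7%). It was common in every type, from 62.5% of control OPCs to 95.5% of control ependymal cells, and is no mark of beta1 cells.

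Few regions were higher by 2-fold or more in beta1 tanycytes than in all other cells, and a set chosen as the highest was also found in every other type. In the control library 0.587% of 107274 regions were higher by 2-fold or more in beta1 cells than in all other cells, and 1.66% were lower. These shares describe the annotated class and are no test of it, since the class comes from the same cells. To follow its regions, the 500 with the highest ratio were chosen in control cells of odd order (every other cell of a type in the annotation), and were then measured in control cells of even order and in all deficient cells. Of every 1000 detections in control beta1 cells, 4.53 (4.46 to 4.60) fell in this beta1 set. Beta2 tanycytes followed with 2.86 (2.80 to 2.93), then alpha1 with 2.27 (2.19 to 2.36) and alpha2 tanycytes with 2.16 (2.13 to 2.18). Ependymal cells, which bear cilia and face the ventricle, had 2.11 (1.98 to 2.24), an interval that overlaps those of alpha1 and alpha2 tanycytes. Proliferating tanycytes had 1.93 (1.71 to 2.17), neurons 1.53, astrocytes 1.34 and oligodendrocyte precursor cells (OPCs) 1.22. Tanycytes of the floor thus came closest to beta1 cells on these regions.

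**Figure D1:**
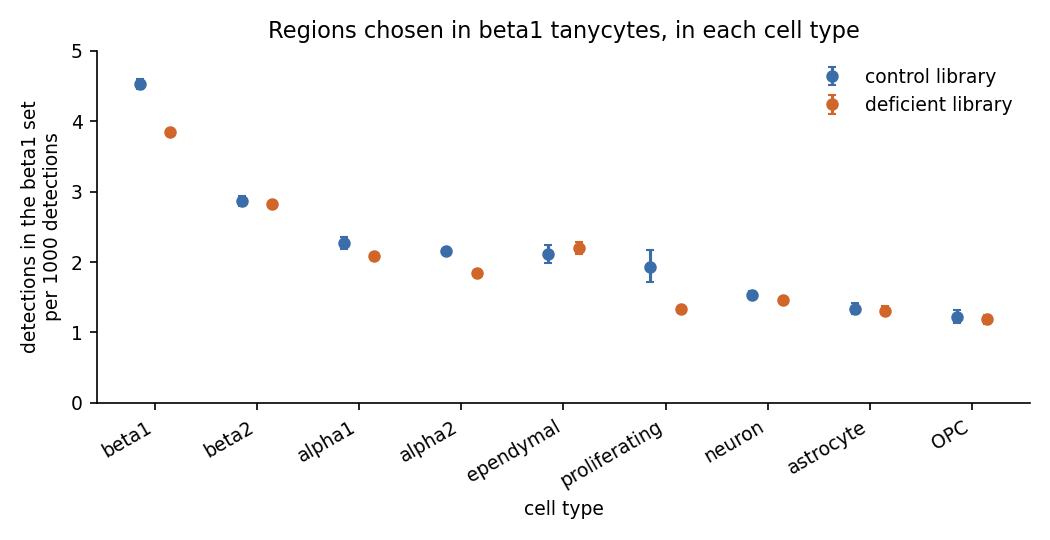
Detections in the 500 regions of the beta1 set per 1000 detections of a cell type (y axis), for each type (x axis) in the control library (blue, cells that did not choose the set) and the deficient library (orange), with exact 95% intervals for counting error. Beta1 tanycytes stand highest in both libraries, at 4.53 and 3.85, and beta2 tanycytes come next, at 2.86 and 2.82.

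The beta1 set was less specific than the sets of 5 of the 8 other types. It was 2.13-fold (log2 1.09, 1.07 to 1.12) above all other control cells in the cells that did not choose it. Sets chosen alike were 4.94-fold higher in beta2 tanycytes and 15.6-fold higher in neurons, but only 1.70-fold higher in alpha2 tanycytes, which were 48.1% of control cells. Of the 500 regions of the beta1 set, 340 (68%) were higher in the measuring beta1 cells than in alpha1, alpha2 and beta2 tanycytes, astrocytes, neurons and OPCs. Among those 6 types the highest level was that of beta2 tanycytes for 208 regions, of alpha1 tanycytes for 122 and of alpha2 tanycytes for 54. Types with fewer cells vary more by counting and can be the highest more often for that reason. Only 1 region of the beta1 set was in the beta2 set, and none was in the sets of the other 7 types. Choosing again in the even-ordered cells gave a set that shared 151 of 500 regions with the first, so membership of single regions was uncertain.

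The regions most and least specific to beta1 cells in the control library show how far the class overlaps with others. Region 71294 was found in 116 of 1558 control beta1 cells (7.45%, 6.19 to 8.86%), against 2.55% of alpha2 and 2.65% of beta2 cells. In the deficient library it was found in 2.49% of beta1 cells (1.91 to 3.19%), 1.08% of alpha2 and 2.09% of beta2 cells. Region 48839 was found in 12.9% of control beta1 cells (11.3 to 14.7%), 4.99% of alpha2 and 7.30% of beta2 cells, and in 8.54%, 3.59% and 4.99% of the same types in the deficient library. In the control library region 71294 was also found in 3.76% of ependymal cells (5 of 133) and 2.15% of neurons, but in 0 of 473 alpha1 cells. Both regions were thus present in a small part of beta1 cells and were also found in other types. Because they were chosen as the highest in control beta1 cells, a lower value in the other library follows in part from that choice. The lowest was region 25197, found in 9 control beta1 cells (0.578%, 0.264 to 1.09%) and in 21.9% of control neurons and 8.55% of control OPCs. Region 40627 was also found in 9 control beta1 cells (0.578%), and in 5.60% of alpha2 and 0.774% of beta2 cells, so it was scarce in both beta types.

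Single beta1 cells were often closer to the alpha2 profile than to their own. Each cell was assigned to the type whose profile, built from cells of the other order in its own library, gave it the highest likelihood. Of control beta1 cells 68.0% (65.7 to 70.3%) were assigned to beta1, 26.1% (23.9 to 28.3%) to alpha2, 5.52% (4.44 to 6.77%) to beta2 and 0.385% to alpha1. Of those in the deficient library 73.2% (71.4 to 74.9%) were assigned to beta1, 20.3% (18.7 to 21.9%) to alpha2, 5.64% (4.76 to 6.63%) to beta2 and 0.613% (15 cells) to neurons. Alpha2 cells were assigned to their own type in 93.2% of control and 83.5% of deficient cells, and beta2 cells in 87.8% and 87.7%. Neurons reached 79.4% and 83.5%, but OPCs 68.1% and 66.4%, astrocytes 64.9% and 47.1%, and alpha1 cells 53.5% and 43.3%. Ependymal cells and proliferating tanycytes were below beta1 cells in both libraries, so a low share was not particular to beta1 cells. The beta1 cells assigned to alpha2 were deeper, with a median of 5118 (control) and 4385 (deficient) detections, against 3841 and 3370 in those assigned to beta1. With cells thinned to 2000 detections the share assigned to their own type was 53.8% (control) and 64.5% (deficient). When deficient beta1 cells were set against the profiles of the control library, 45.2% were assigned to beta1 and 49.2% to alpha2. With the annotation moved on by 1000 cells within each library, 3.92% and 6.25% of the cells then called beta1 were assigned to beta1.

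On regions that separate alpha2 from beta2 tanycytes, beta1 cells lay between them and nearer to alpha2. These regions were chosen in the control library without any beta1 cell: of 94682 regions, 10398 (11%) were lower by 2-fold or more in beta2 than in alpha2 cells, called alpha2 regions here, and 6239 (6.59%) were higher, called beta2 regions. Alpha2 regions took 68.7 of every 1000 detections in control beta1 cells, against 85.7 in alpha2 and 27.4 in beta2 cells. Beta2 regions took 36.5 per 1000 in control beta1 cells, against 24.3 in alpha2 and 74.4 in beta2 cells. Of detections in either set, the share in beta2 regions was 34.7% in control beta1 cells (34.6 to 34.8%), 22.1% in alpha2 and 73.1% in beta2 cells, which places beta1 cells 24.7% of the way from alpha2 to beta2. The values of control alpha2 and beta2 cells are widened by the choice of regions in the same cells. Region by region, control beta1 cells had a level between the other 2 types for 79.2% of alpha2 regions and 83.9% of beta2 regions. Their level was above both for 19.8% of alpha2 regions and below both for 15.3% of beta2 regions, so where they lay outside they lay mostly beyond alpha2. In the deficient library, whose cells did not choose the regions, 62.3% of alpha2 and 82.7% of beta2 regions lay between. There 32.6% of alpha2 regions were above both, and 14.2% of beta2 regions were below both.

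The position between alpha2 and beta2 was a broad range within the class and not a pair of separate groups. In cells thinned to 2000 detections, the share in beta2 regions had a median of 32.1% in control beta1 cells, with quartiles of 24.2 and 43.3% and a 5th to 95th percentile range of 17.3 to 63.1%. It had a median of 16.1% in control alpha2 and 82.3% in control beta2 cells. Of control beta1 cells 28.6% lay above the 95th percentile of alpha2 cells (41.5%) and 82.4% lay below the 5th percentile of beta2 cells (48.7%). In the deficient library beta1 cells had a median of 29.7%, with quartiles of 23.7 and 39.3%, and 21.2% of them lay above the 95th percentile of deficient alpha2 cells (41.1%). Each thinned beta1 cell had a median of 212 control or 204 deficient detections in these regions, which limits the precision of a single cell's value.

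**Figure D2:**
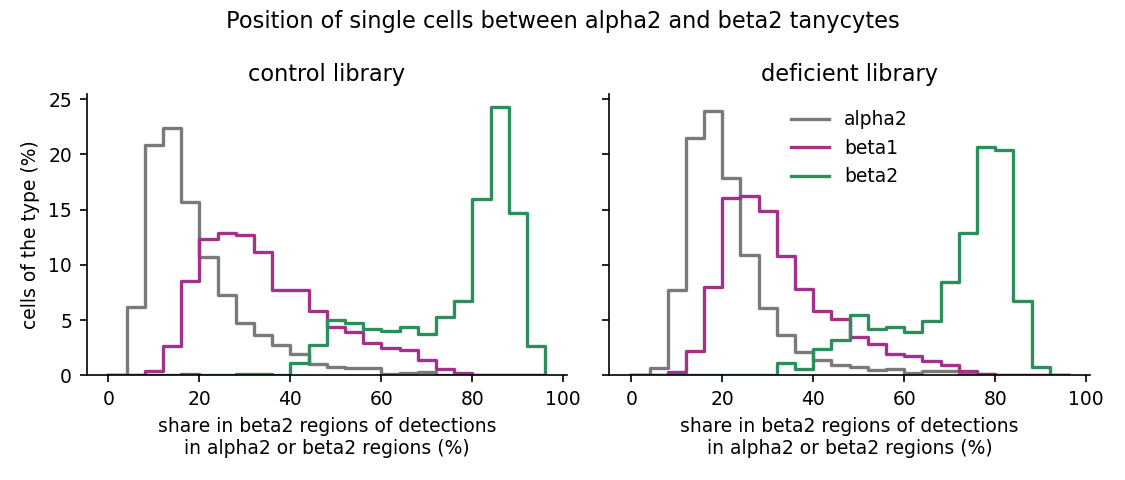
Share of a cell's detections in alpha2 or beta2 regions that fell in beta2 regions (x axis, in steps of 4%) against the percent of cells of the type (y axis), for cells thinned to 2000 detections in the control (left) and deficient library (right). Beta1 cells (purple) form 1 broad peak between alpha2 (grey) and beta2 cells (green), with medians of 32.1% and 29.7%.

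Between the libraries, beta2 regions took a smaller share of detections in deficient beta1 cells, and the interval of the difference in alpha2 regions included 0. Beta2 regions took 36.5 per 1000 detections in control and 32.9 in deficient beta1 cells, a log2 ratio of -0.15 (-0.16 to -0.14). Alpha2 regions took 68.7 and 68.5 per 1000 (-0.0031, -0.0084 to 0.0022). In beta2 tanycytes the ratio was -0.16 for beta2 regions and 0.16 for alpha2 regions, and in alpha2 tanycytes it was -0.13 for both. The regions were chosen by their contrast in control alpha2 and beta2 cells, which favours a smaller contrast in deficient cells of these types. With that choice, beta2 regions took 73.1% of detections in either set in control and 68.5% in deficient beta2 cells. With regions chosen in the deficient library they took 71.4% and 74.9%, so the direction in beta2 cells turned with the choosing library. Of detections in either set, 32.4% fell in beta2 regions in deficient beta1 cells, which were 22.2% of the way from alpha2 to beta2. When beta1 cells were divided into 4 classes at the quartiles of their pooled depth, the ratio of beta2 regions was -0.057, -0.078, -0.27 and -0.15 from the shallowest to the deepest class. The ratio of alpha2 regions over the same classes was -0.065, -0.073, 0.054 and 0.013, so its sign turned with depth. Of single regions tested, 35 of 3936 beta2 regions (0.889%) were higher by 2-fold or more, while 135 (3.43%) were lower, with a median log2 ratio of -0.11. Of 7181 alpha2 regions tested, 273 (3.8%) were higher and 346 (4.82%) lower, with a median of 0.073, so calls in both directions were more frequent there than among beta2 regions. Among all 70598 regions tested in this comparison 2.32% were lower and 1.6% higher, with a median of 0.042.

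The beta1 set took a smaller share of detections in deficient than in control beta1 cells, while beta1 cells stayed the highest type in both libraries. It took 4.53 per 1000 detections in control and 3.85 in deficient beta1 cells, a log2 ratio of -0.24 (-0.26 to -0.21). It was lower in all 4 depth classes, with ratios from -0.38 to -0.18. The same regions had ratios of -0.23 (-0.25 to -0.21) in alpha2 and -0.13 (-0.19 to -0.062) in alpha1 tanycytes, and of -0.021 (-0.063 to 0.022) in beta2 tanycytes. In all deficient cells other than beta1 they took 1.80 per 1000, against 2.13 in control, so the set was 2.13-fold (control) and 2.14-fold (deficient) above other cells, a pool that held more neurons and proliferating tanycytes in the deficient library. Against single types, beta1 cells were 1.58-fold (control) and 1.36-fold (deficient) above beta2, 1.99 and 1.85-fold above alpha1, and 2.10 and 2.09-fold above alpha2 tanycytes. Of the 8 other types, the fold was larger in the deficient library over proliferating tanycytes alone, at 2.34 and 2.89. A set chosen in the deficient library, which shared 109 of 500 regions, took 5.10 per 1000 in control and 4.26 in deficient beta1 cells (-0.26, -0.28 to -0.24), and was 1.99-fold (control) and 2.36-fold (deficient) above other cells. Region by region, 433 of the 500 had at least 50 detections over deficient cells and even-ordered control cells, of which 26 were lower and 5 higher by 2-fold or more, with a median of -0.18. Over all 60480 regions tested that way 2.24% were lower and 2.47% higher, with a median of 0.041. In thinned cells the mean number of these regions was 9.23 per control beta1 cell of even order (SD 4.24 over 712 cells) and 7.81 per deficient one (SD 3.66 over 2133 cells).

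Single regions differed between the libraries in both directions, and the direction went with how often a region was found. Of 70598 regions with at least 50 detections in beta1 cells, 1635 (2.32%) were lower and 1131 (1.6%) higher by 2-fold or more in the deficient library, and 18 and 8 by 4-fold or more. Ratios of single regions carry a pseudocount of 1 detection per 1000000, which draws low regions towards 0. Among 20256 regions found in under 2% of beta1 cells 623 (3.08%) were higher and 496 (2.45%) lower. A rare region can pass the minimum through the library where it is higher, so nothing is read from these counts of the rarest class. Among 11938 regions found in 5 to 10% of cells 51 (0.427%) were higher and 289 (2.42%) lower. Of the 2676 regions found in 20% or more none passed 2-fold in either direction. Summed over all regions of a class, with no minimum, the log2 ratio was 0.27 for regions found in under 0.5% of beta1 cells, 0.21 from 0.5 to 1%, 0.12 from 1 to 2% and -0.053 from 5 to 10%. Rarely found regions thus took a larger share of detections in the deficient library. Deficient beta1 cells were shallower, and in data of presence or absence depth changes the shares of common and rare regions, whose part here was not tested. With cells thinned to 2000 detections 2.56% of regions were lower and 1.39% higher. The share of higher regions among those past 2-fold was 40.9%, and ranged from 12.1% with a pseudocount of 5 to 51.1% with no minimum.

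**Figure D3:**
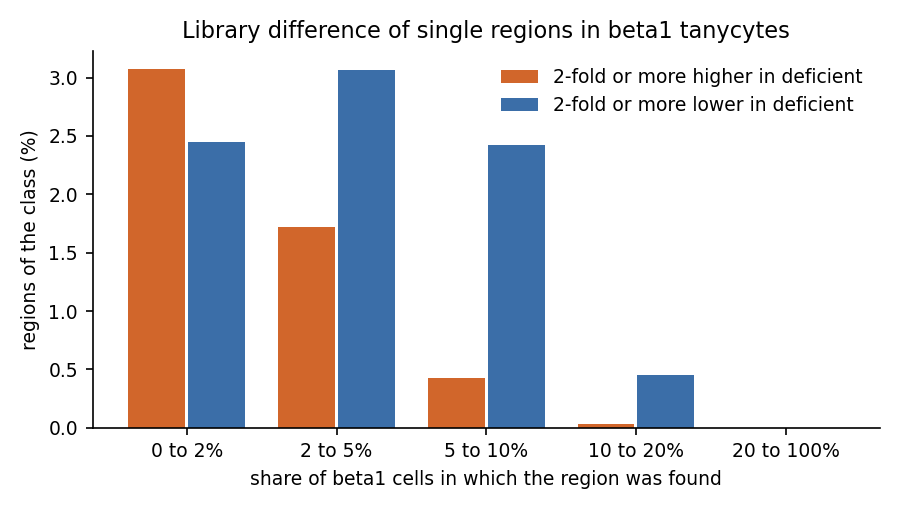
Percent of regions (y axis) that were higher (orange) or lower (blue) by 2-fold or more in deficient than in control beta1 tanycytes, among regions with at least 50 detections, by the share of all beta1 cells in which the region was found (x axis). Lower regions outnumber higher ones in each class from 2 to 20%, and no region found in 20% or more of cells passed 2-fold.

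Among regions with at least 200 detections in beta1 cells, the 2 lowest and 2 highest of this comparison differed in the same direction in alpha2 and beta2 tanycytes. Region 8307 was found in 283 of 1558 control (18.2%, 16.3 to 20.2%) and 61 of 2448 deficient beta1 cells (2.49%, 1.91 to 3.19%), a log2 ratio of -2.45 with the pseudocount and -2.63 (-3.05 to -2.23) without it. It went from 30.1 to 3.55% of alpha2 cells and from 7.63 to 1.10% of beta2 cells. Region 101631 was found in 11.4% of control (9.83 to 13.04%) and 1.84% of deficient beta1 cells (1.34 to 2.45%), and in 15.7 and 2.12% of alpha2 and 12.2 and 1.69% of beta2 cells. Region 43464 had the highest ratio, found in 11 control (0.706%, 0.353 to 1.26%) and 217 deficient beta1 cells (8.86%, 7.77 to 10.1%), a log2 ratio of 3.21 with the pseudocount and 3.89 (3.02 to 4.91) without it. It went from 0.650 to 13.7% of alpha2 and from 0.996 to 11.9% of beta2 cells. Region 94626 was found in 1.35% of control (0.836 to 2.05%) and 7.97% of deficient beta1 cells (6.92 to 9.11%), in 1.58 and 6.45% of alpha2 cells, and in 0.442 and 2.29% of beta2 cells, the latter from 4 control and 23 deficient cells. In proliferating tanycytes, with 3 control cells, its ratio was -0.36 (-2.02 to 1.99).

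As sets, the regions that differed most in beta1 cells differed in every other type too. The 500 lowest and 500 highest regions were chosen in odd-ordered beta1 cells among 24438 regions with at least 100 detections there. In the even-ordered beta1 cells the lowest took 12.3 (control) and 5.74 (deficient) per 1000 detections, a log2 ratio of -1.10 (-1.12 to -1.07). The same regions had -1.09 in beta2, -1.02 in alpha1 and -1.32 in alpha2 tanycytes, -1.93 in proliferating tanycytes, -1.34 in neurons, -0.80 in OPCs, -0.47 (-0.51 to -0.43) in astrocytes and -0.59 in ependymal cells. The highest took 6.09 and 9.31 per 1000 in the even-ordered beta1 cells (0.61, 0.59 to 0.64). They had 0.61 in alpha2, 0.59 in alpha1 and 0.51 in beta2 tanycytes, 0.60 in neurons, 0.69 in proliferating tanycytes, 0.35 in OPCs, 0.31 in astrocytes and 0.29 in ependymal cells. These comparisons share the same 2 libraries and are not independent of each other.

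A library difference that set beta1 cells apart from their neighbours was small where it was measured in cells that did not choose it. In odd-ordered cells, the 500 regions with the most negative difference of log2 ratios between beta1 and alpha2 cells had a ratio of -0.55 in beta1 and 0.44 in alpha2 cells, a difference of -0.998. In even-ordered cells the same regions had 0.079 (0.048 to 0.11) and 0.21 (0.19 to 0.23), a difference of -0.13. The 500 regions at the other end went from a difference of 1.04 to 0.21. Against beta2 cells the differences went from -0.93 to -0.14 and from 0.94 to 0.11, and against alpha1 cells from -0.84 to -0.12 and from 0.84 to 0.11. Most of each choosing difference was thus not seen again, and the part that was seen kept its sign in all 6 sets. Cells of both orders come from the same 2 libraries, so this is no replicate check. The ratio in beta1 cells alone turned sign in the first set, and in the sets of most positive difference. There it went from 0.35 to -0.28 (against alpha2), 0.16 to -0.14 (beta2) and 0.13 to -0.051 (alpha1). In the sets of most negative difference against beta2 and alpha1 it stayed negative, from -0.45 to -0.14 and -0.25 to -0.086.

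Neuron regions took a larger share of detections in deficient than in control beta1 cells. These 500 regions were chosen in the control library as neurons over all other cells except beta1, and took 0.408 (control) and 0.630 (deficient) per 1000 beta1 detections, a log2 ratio of 0.63 (0.57 to 0.69). In control neurons they took 9.04 per 1000. The ratio in beta1 cells was 0.54, 0.53, 0.72 and 0.68 from the shallowest to the deepest class. With regions chosen in the deficient library, of which 229 of 500 were shared, it was also 0.63 (0.58 to 0.69). At 2000 detections per cell it was 0.64 (0.53 to 0.74) in beta1, 0.62 (0.56 to 0.67) in alpha2, 0.53 (0.38 to 0.69) in beta2 and 0.42 (0.23 to 0.60) in alpha1 tanycytes, and these intervals overlap. Neuron regions are rare in beta1 cells: 358 of the 500 were found in under 0.5% of them, a class whose summed ratio over all 7426 regions was 0.27. Only 23 of the 500 had 50 detections or more over both libraries, a minimum that a rare region can pass through the library where it is higher. Of these, 4 were higher by 2-fold or more and 0 lower, beside 1.6% higher and 2.32% lower of all regions tested, and nothing is read from so few. Neurons were 9.86% of control and 18.9% of deficient cells, and the part of this difference in the result was not tested.

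**Figure D4:**
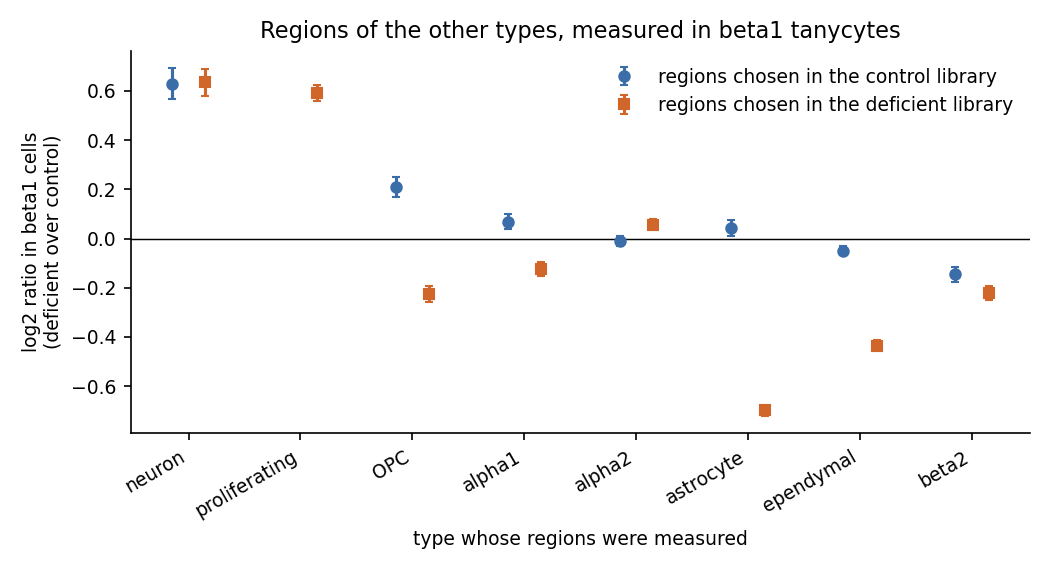
Log2 ratio of deficient over control in beta1 tanycytes (y axis) for up to 500 regions specific to each other type (x axis), chosen without beta1 cells in the control (blue circles) or deficient library (orange squares), with exact 95% intervals for counting error. Neuron regions stand at 0.63 under both choices, and OPC, alpha1 and astrocyte regions have opposite signs under the 2 choices. Alpha2 values also differ in sign, at -0.011 (an interval that includes 0) and 0.056. The control choice for proliferating tanycytes, of 230 regions, is not plotted.

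The higher level of neuron regions was spread over many beta1 cells, each with few detections. In cells thinned to 2000 detections, 49.96% of control beta1 cells (47.3 to 52.6%) and 35.5% of deficient ones (33.5 to 37.6%) held no neuron region. The mean was 0.774 per control cell (SD 1.08 over 1413 cells) and 1.20 per deficient cell (SD 1.47 over 2133 cells). Cells with 5 or more were 1.13% (0.649 to 1.83%) of control and 2.30% (1.70 to 3.03%) of deficient beta1 cells, while 82.9% of control and 67.9% of deficient neurons had 5 or more. In alpha2 cells the share with none went from 46.3 to 30.9%, and in beta2 cells from 54.5 to 43.6%, so beta1 cells lay between them in both libraries. Among beta1 cells that were also assigned to beta1 the log2 ratio was 0.64 (0.56 to 0.72), and with the deepest 5% of cells left out it was 0.66 (0.59 to 0.73).

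**Figure D5:**
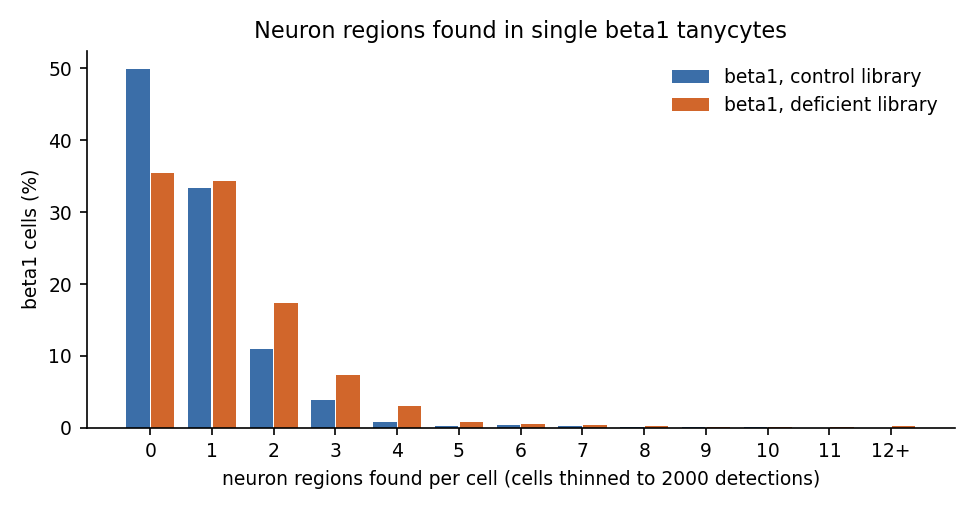
Percent of beta1 tanycytes (y axis) by the number of the 500 neuron regions found in the cell (x axis) after thinning to 2000 detections, in the control (blue) and deficient library (orange). Cells with none are 49.96% of control and 35.5% of deficient cells, and cells with 5 or more are rare in both, at 1.13 and 2.30%.

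Proliferating tanycyte regions had opposite signs under the choices of library. The 1033 such cells of the deficient library gave 500 regions, which took 1.40 per 1000 detections in control and 2.10 in deficient beta1 cells, a log2 ratio of 0.59 (0.56 to 0.63). Of 220 regions with at least 50 detections, 28 (12.7%) were higher by 2-fold or more and 0 lower, with a median of 0.47. Over all regions tested 1.6% were higher and 2.32% lower, with a median of 0.042. Among those found in under 2% of beta1 cells 3.08% were higher and 2.45% lower. A rare region can pass the minimum through the library where it is higher, and these regions were chosen in the deficient library. Nothing is therefore read from the calls of single regions. The 63 such cells of the control library gave 230 regions, none of them shared, which took 11.3 and 10.8 per 1000 in beta1 cells (-0.062, -0.075 to -0.049). In control proliferating tanycytes these 230 took 17.0 per 1000, while the 500 of the deficient choice took 5.92 in deficient ones. The 2 choices thus compare commonly found with rarely found regions, and the part of this in the change of sign was not tested. In thinned cells the mean number of regions from the deficient choice was 2.67 per control (SD 1.76) and 4.10 per deficient beta1 cell (SD 2.39), below alpha2 cells (3.82 and 6.04) and above beta2 cells (1.78 and 2.50). Regions specific to beta2 tanycytes over all other types took 2.15 and 1.94 per 1000 in beta1 cells (-0.15, -0.18 to -0.11), or, by the deficient choice, 2.41 and 2.06 (-0.22, -0.25 to -0.19). Those of alpha2 tanycytes had a ratio of -0.011 (-0.032 to 0.010), or 0.056 (0.034 to 0.079) when chosen in the deficient library.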

How the data were processed

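The authors deposited a matrix of presence or absence (a MatrixMarket pattern, per the file headers, with no value per entry) and an annotation with each cell's library and type. Cell Ranger ATAC 1.1.0 processed the reads at its defaults, per the labels' protocols. The submitters' processing notes name mm10 as build and, with no roles, Cell Ranger 3.1, Signac 0.2.5, Seurat and MACS2. Region calling, cell filters, doublet treatment and the naming of types are not given in the sources used here, and the matrix names no cells, so its cells were taken in the annotation's order.

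Detections were summed per type and library and divided by all detections. Regions were compared singly as log2 ratios, with 1 per 1000000 added to each level and at least 50 detections over both libraries. Sets held up to 500 regions with at least 20 detections and a log2 ratio of at least 0.5 in the choosing cells. Assignment used multinomial likelihoods with profiles drawn towards the library mean by 100000 detections. Regions were named as the 2 highest and 2 lowest with at least 200 detections. Shares have Clopper-Pearson and ratios conditional binomial intervals. No doublets were called or removed here. The class, lists and rules were chosen with earlier results of these data known. Ratios and sets were tried on simulated independent counts per region, with no single cells and no library effect, so the trial does not cover those. The tools were numpy 2.4.6 and scipy 1.17.1 in Python 3.11.15, with matplotlib 3.10.9 for plots and pandas 2.3.3 for tables. Alternatives were other pseudocounts, minimums, scalings, set sizes, choosing libraries and cells.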

Additional observations from a re-analysis of the deposited data

Results flagged for a closer look

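Regions specific to neurons went opposite ways in beta1 tanycytes and in neurons. With regions chosen in the control library, the log2 ratio of deficient over control was 0.63 in beta1 tanycytes and -1.01 (-1.03 to -0.99) in neurons, where a choice in control neurons favours a lower value in the other library. With regions chosen in the deficient library it was 0.63 in beta1 tanycytes and -0.15 (-0.17 to -0.13) in neurons. The regions chosen in the control library also had 0.51 in alpha2, 0.62 in beta2 and 0.51 in alpha1 tanycytes, so this is not particular to beta1 tanycytes. Each value rests on 1 library per genotype, and the difference between the types was not tested.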

How the results depend on the processing

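No paired analysis was possible because each genotype had 1 library. The percent of beta1 regions higher by 2-fold or more went from 1.6 to 0.0510 with a pseudocount of 5 and to 0.224 with a minimum of 200 detections, and the percent lower from 2.32 to 0.370 and 1.40. Of regions past 2-fold, 40.9% were higher as reported, 12.1% with a pseudocount of 5, 13.8% with a minimum of 200 detections, 33.6% with median-of-ratios scaling and 51.1% with no minimum. Against control cells of even order alone, 2.47% were higher and 2.24% lower, so which direction had more regions depended on the setting. The log2 ratio of the beta1 share of cells was 0.076, 0.19 among tanycytes and 0.29 with types reassigned. The beta1 set had -0.24, -0.28 with median-of-ratios scaling and -0.29 in cells also assigned to beta1 (for this set and neuron regions, this choice and leaving out the deepest 5% of cells were added after seeing the data). Neuron regions had 0.63, and 0.75 with up to 200 regions. The share in beta2 regions, 34.7% in control and 32.4% in deficient beta1 cells, was 39.3 and 37.2% with 4-fold regions, 40.3 and 35.4% with regions chosen in the deficient library, and 29.5 and 28.1% with a minimum of 200 detections. Under these choices beta1 cells lay 21.96 to 29.9% of the way from alpha2 to beta2. Own-type assignment, 68.0% and 73.2%, was 53.8% and 64.5% in thinned cells, and 45.2% for deficient cells on control profiles. The 4 regions named for the library comparison kept their direction in 28 of 28 values under 7 alternatives. A minimum of 200 detections and no minimum cannot change a region's own ratio, so those values were fixed in advance. The regions were also picked as extremes of the same cells, so this count is no support for them. The cause of each shift was not tested.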

Other observations

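Regions specific to glial and ependymal cells gave no single direction in beta1 tanycytes. OPC regions took 1.17 per 1000 detections in control and 1.35 in deficient beta1 cells (log2 ratio 0.21, 0.17 to 0.25), but 2.02 and 1.73 (-0.22, -0.26 to -0.19) when chosen in the deficient library, with 254 of 500 regions shared by the choices. Astrocyte regions took 1.67 and 1.72 per 1000 (0.043, 0.0088 to 0.076), but 5.63 and 3.47 (-0.70, -0.72 to -0.68) when chosen in the deficient library, with 123 regions shared. Ependymal regions took 6.72 and 6.498 per 1000 (-0.049, -0.066 to -0.032), or 4.55 and 3.37 (-0.44, -0.46 to -0.41) when chosen in the deficient library, with 104 regions shared. Alpha1 regions had 0.069 (0.037 to 0.10) and -0.12 (-0.15 to -0.095) under the 2 choices, with 225 shared. Their direction in beta1 cells therefore depended on the choosing library, except for ependymal regions, which were lower under both.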
